A study of Mus musculus with 4 samples.

Results

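Transforming growth factor beta (TGF-beta) and bone morphogenetic protein (BMP) pathway genes were examined in mouse inguinal fat, a white depot under the skin. The 39 genes were chosen by name as ligands, receptors, SMAD proteins, extracellular modulators and targets, and 37 of them had a value among the 13677 genes of the deposited tables. Inhba and Grem1 had no value. The 4 RNA sequencing libraries fall into 2 libraries labelled FLCNKO, from animals with an adipose knockout of Flcn, and 2 libraries labelled WT, from wildtype animals. Flcn encodes folliculin, a tumour suppressor that acts in nutrient signalling through mTOR, and the series asks how its loss bears on browning of fat. The labels name neither the line that drives the deletion nor the deleted exons, and they state no strain, age, sex or number of animals behind a library.

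Ligands of the TGF-beta family are secreted as dimers. They bring together type II and type I serine/threonine kinase receptors, which phosphorylate SMAD proteins. TGF-beta and activins signal mainly through SMAD2 and SMAD3, BMPs through SMAD1 and SMAD5, and both branches share SMAD4, while SMAD6 and SMAD7 inhibit them. In fat, BMPs are known to commit precursor cells to the adipocyte lineage, and TGF-beta is known to restrain adipocyte differentiation and to drive matrix genes.

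Of the 37 measured genes, 2 fell in the FLCNKO-labelled libraries and 0 rose (limma, adjusted p under 0.05 over all genes). They were Gdf10, a ligand, and Bmp1, an extracellular protease. With any 1 of the 4 libraries left out, or without limma's mean-variance trend, 0 of the 37 and 0 of all genes were called, while the count lower in each such fit without a library was 7 to 15 of the 37 at an unadjusted p under 0.05. Over all genes 0.614% were called lower, 0.98% higher and 1.59% in either direction. At an unadjusted p under 0.05, 10 of the 37 were lower and 0 higher, against 10.3% of all genes lower and 12.1% higher. Beside Gdf10 and Bmp1 these were the ligand Tgfb3, the receptors Tgfbr2, Tgfbr3, Acvr1b, Acvr1c and Acvrl1, the modulator Fstl1 and the target Tgfbi. The log2 fold change, the FLCNKO-labelled mean minus the WT mean, was below 0 for 32 of the 37 and above 0 for 5. Its median over the 37 was -0.20 (-0.35 without FLCNKO-labelled replicate 2), beside 0.0046 over all genes.

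Both libraries of a group lay below both of the other for 18 genes, with FLCNKO-labelled values lower, and above for 1, Smad2. Over all genes 25.4% lay apart in the lower direction and 29.2% in the higher, or 54.6% in either. The other 18 pathway genes had groups that overlapped. With 2 libraries a group and no label tying a library to an animal, the spread behind each p-value is that between these 4 libraries alone and may be technical. In bulk tissue, fewer cells of a type and less RNA per cell cannot be told apart.

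**Figure D1:**
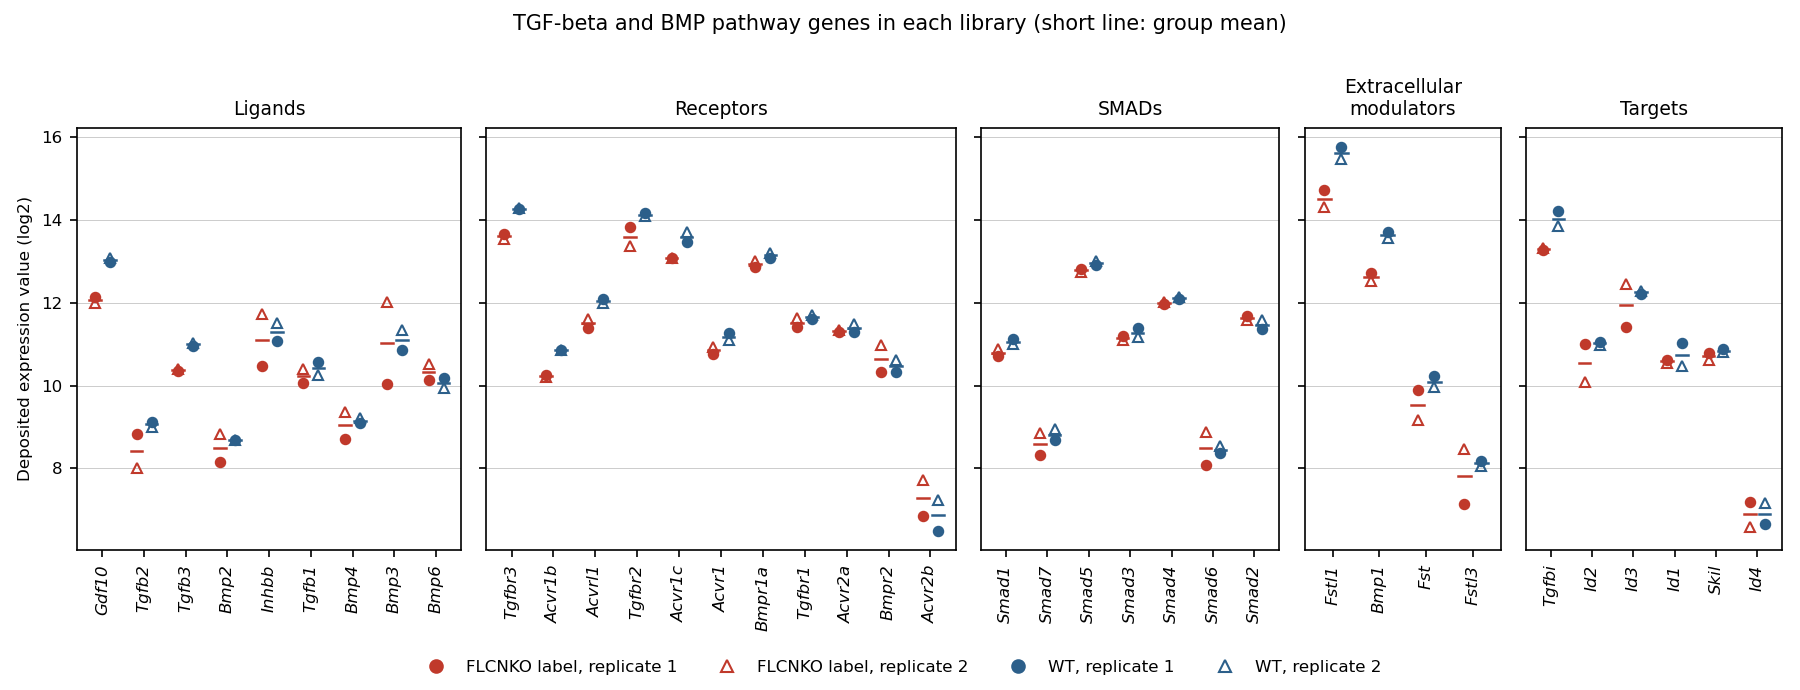
Deposited log2 value (vertical axis) of each of the 37 pathway genes in each library, by role, with FLCNKO-labelled libraries in red left of WT libraries in blue and a short line at each group mean. Gdf10 and Bmp1 lay at or below 12.72 in the FLCNKO-labelled libraries and at or above 12.99 in WT, while Bmp3, Inhbb, Id3 and Fstl3 had FLCNKO-labelled values on both sides of the WT values.

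The values are log2 expression values that the authors had brought to nearly the same distribution in every library, with library medians between 10.7636 and 10.7645. The sequencing depth is unknown, so no counting interval is given, and no scaling by transcript length is recorded, so levels were not compared between genes. Flcn, the gene targeted by the knockout, had overlapping values. It had 12.35 and 12.12 in the FLCNKO-labelled libraries and 12.36 and 12.21 in WT (log2 fold change -0.05 ± 0.13, SE; limma adjusted p = 0.852). Its fold change was 0.02 without WT replicate 1 and 0.06 without FLCNKO-labelled replicate 2. The deleted part is not given and the tissue holds other cells, so the labels are not checked by this value.

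The labelled tissue was checked by its markers. All 10 adipocyte markers had values, and their summed level, the log2 of the sum of the unlogged values, was 21.63 and 21.52 in the FLCNKO-labelled libraries and 21.87 and 21.75 in WT. Markers of high level weigh most in such a sum. The median level of the 10 overlapped, with 17.26 and 17.70 in the FLCNKO-labelled libraries and 17.74 and 17.62 in WT. Of these 10, 8 had log2 fold changes below 0, and limma called 0, with 3 lower at an unadjusted p under 0.05 and apart, Adipoq at -0.46, Retn at -0.44 and Cfd at -1.13. All 12 fibroblast and progenitor markers had log2 fold changes below 0, and 3 of them were called lower. At an unadjusted p under 0.05, 11 were lower, and for 11 the FLCNKO-labelled values lay below both WT values. The summed level was 18.93 and 18.85 in the FLCNKO-labelled libraries against 19.95 and 19.78 in WT. All 10 macrophage markers were likewise below 0, and 2 of them were called lower. At an unadjusted p under 0.05, 9 were lower, and for all 10 the FLCNKO-labelled values lay below both WT values. Their summed levels were 17.03 and 16.76 in the FLCNKO-labelled libraries against 17.88 and 17.66 in WT. Over all genes 0.614% were called lower, 10.3% were lower at an unadjusted p under 0.05, and 25.4% lay apart in the lower direction. The part of the adipocyte, fibroblast and macrophage markers in the results was not tested. Of 8 endothelial markers 0 were called by limma (1 lower at an unadjusted p under 0.05), with summed levels of 15.03 and 15.42 in the FLCNKO-labelled libraries and 15.24 and 15.19 in WT.

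Further lists marked tissue near the depot. Of 9 skeletal muscle markers 0 were called by limma (0 at an unadjusted p under 0.05), and all 9 had log2 fold changes below 0. Their summed level was higher in replicate 1 of each group, with 15.91 and 13.37 in the FLCNKO-labelled libraries and 17.03 and 14.06 in WT. Within the FLCNKO label 8 of the 9 were higher in replicate 1, and Acta1, with 13.29 and 13.32, was not. The summed 13.37 of FLCNKO-labelled replicate 2 thus lay close to the value of Acta1 alone. Of 7 smooth muscle and pericyte markers Cnn1 had no value, and of the other 6, 0 were called by limma (1, Cspg4, lower at an unadjusted p under 0.05). Of these 6, 5 had log2 fold changes above 0, their median was 0.34, and Rgs5 had FLCNKO-labelled values above both WT values. The summed level was 15.25 and 15.58 in the FLCNKO-labelled libraries and 15.33 and 15.12 in WT. Of 7 lymphocyte markers 0 were called (2 lower at an unadjusted p under 0.05), with summed levels of 13.26 and 14.28 in the FLCNKO-labelled libraries and 14.82 and 14.16 in WT. Of 8 mammary epithelial markers 4 had a value, and Krt5, Krt14, Epcam and Wap had none. The summed level of the 4 was 9.06 and 9.25 in the FLCNKO-labelled libraries and 10.48 and 11.28 in WT, and 1, Trp63, was called lower. Trp63 alone had 8.13 and 7.88 in the FLCNKO-labelled libraries and 10.07 and 10.98 in WT, so it made up most of the WT sums. The median level of the 4 overlapped, with 6.81 and 7.49 in the FLCNKO-labelled libraries and 7.17 and 7.61 in WT. Of 5 mesothelial markers Msln, Upk3b and Wt1 had no value, and the other 2 differed in opposite directions with groups that lay apart, Lrrn4 by 1.45 ± 0.30 and Krt19 by -1.88 ± 0.62 (SE; limma adjusted p = 0.0789 and 0.169, both under 0.05 unadjusted). Their summed level was 8.90 and 8.50 in the FLCNKO-labelled libraries and 8.11 and 7.83 in WT.

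The stretches upstream of transcription starts are shown for 4 pathway genes: Gdf10, which passed the test, Fstl1, which had the largest difference with all 4 libraries, and Tgfbi and Id3, textbook targets of the TGF-beta and BMP branches. Each line gives the 250 bases before the RefSeq start on build GRCm38.p6, 5′ to 3′ on the plus strand, and capitals mark CAGAC or its reverse complement GTCTG, the short box that SMAD3 and SMAD4 bind.
Gdf10, chr14:33923337-33923586: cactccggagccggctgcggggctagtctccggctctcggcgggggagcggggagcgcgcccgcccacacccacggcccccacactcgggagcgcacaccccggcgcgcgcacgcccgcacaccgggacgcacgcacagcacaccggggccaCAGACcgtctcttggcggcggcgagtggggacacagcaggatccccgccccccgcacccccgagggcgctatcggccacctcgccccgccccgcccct
Fstl1, chr16:37776805-37777054: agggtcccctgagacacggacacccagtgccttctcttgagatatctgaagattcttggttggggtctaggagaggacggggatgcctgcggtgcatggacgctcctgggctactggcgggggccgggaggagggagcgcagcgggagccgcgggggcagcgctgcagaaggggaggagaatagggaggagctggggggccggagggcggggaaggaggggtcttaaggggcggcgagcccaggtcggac
Tgfbi, chr13:56609336-56609585: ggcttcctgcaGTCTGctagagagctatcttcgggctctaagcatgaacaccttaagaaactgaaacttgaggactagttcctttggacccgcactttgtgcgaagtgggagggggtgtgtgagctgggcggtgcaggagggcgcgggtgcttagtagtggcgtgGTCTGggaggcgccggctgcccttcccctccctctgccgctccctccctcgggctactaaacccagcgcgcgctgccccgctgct
Id3, chr4:136143572-136143821: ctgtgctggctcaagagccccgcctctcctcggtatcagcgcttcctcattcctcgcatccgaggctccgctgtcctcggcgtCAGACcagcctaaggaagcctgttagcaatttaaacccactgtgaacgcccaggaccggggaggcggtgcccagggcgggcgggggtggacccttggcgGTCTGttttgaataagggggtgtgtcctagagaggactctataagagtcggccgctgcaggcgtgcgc
The Gdf10 window holds 1 such box, the Tgfbi and Id3 windows 2 each and the Fstl1 window 0. RefSeq windows were matched by symbol for 25 of the 37 genes, 29 windows in all, and Bmp1 had none. The box occurred in 11 of these 29 (37.9%) and in 42.2% of all 32851 windows of the same length. GGCGCC, a GC-rich sequence bound by SMAD1 and SMAD5, occurred in 7 of the 29 (24.1%) and in 9.59% of all windows. CACGTG, the E-box bound by TFE3, a transcription factor that folliculin is known to hold in the cytoplasm, occurred in 4 (13.8%) and in 6.02% of all windows. Both strands were searched, the last pair of motifs read the same on both, and overlaps between motifs were counted for each. The 29 windows held from 49.6% (Acvr1c) to 85.6% (Acvr1) G and C, and all windows were not matched to them in base content. Some genes had several windows, and those of Smad5 partly overlap. Whether any share differs from that of all windows was not tested. A match is a description of letters and not a site.

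Of the 9 measured ligands, Gdf10 fell, and the other 8 did not pass the test. Gdf10 (ENSMUSG00000021943), a relative of Bmp3 also called BMP-3b, had 12.14 and 11.99 in the FLCNKO-labelled libraries and 12.99 and 13.08 in WT. Its FLCNKO-labelled values lay below both WT values, with means of 12.06 ± 0.11 and 13.04 ± 0.07 (SD, n = 2 each). The log2 fold change, -0.97 ± 0.11 (SE), passed the threshold (limma adjusted p = 0.0419). Gdf10 was thus 1.96-fold lower, and the 95% interval of its log2 fold change ran from -1.26 to -0.68. With a library left out, the limma call was lost each time. The Gdf10 value was then -1.05 without FLCNKO-labelled replicate 1 (adjusted p = 0.103), -0.90 without FLCNKO-labelled replicate 2 (adjusted p = 0.068), -1.02 without WT replicate 1 (adjusted p = 0.291) and -0.93 without WT replicate 2 (adjusted p = 0.265). The limma adjusted p for Gdf10 was 0.14 without the mean-variance trend.

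The TGF-beta ligands differed among themselves. Tgfb3 had 10.34 and 10.39 in the FLCNKO-labelled libraries and 10.95 and 11.04 in WT. The 2 groups of Tgfb3 lay apart, with a log2 fold change of -0.63 ± 0.12 (SE) that did not pass (limma adjusted p = 0.0722). In the annotation, 12.4% of the exon bases of Tgfb3 overlap exons of genes on the opposite strand, and the strand setting of the counting is not given. Tgfb2 had 8.83 and 8.02 in the FLCNKO-labelled libraries and 9.13 and 9.01 in WT, also apart (-0.64 ± 0.32; limma adjusted p = 0.307). The Tgfb2 value was -1.05 without FLCNKO-labelled replicate 1 and -0.24 without FLCNKO-labelled replicate 2. Tgfb1, the form secreted by many immune and stromal cells, had 10.07 and 10.41 in the FLCNKO-labelled libraries and 10.58 and 10.26 in WT, so its groups overlapped (-0.18 ± 0.19; limma adjusted p = 0.644).

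The BMP ligands and the activin subunit gene had groups that overlapped. Bmp4, which commits precursors to the fat lineage, had 8.72 and 9.37 in the FLCNKO-labelled libraries and 9.10 and 9.21 in WT (-0.12 ± 0.26). Bmp2 had 8.16 and 8.83 in the FLCNKO-labelled libraries and 8.70 in both WT libraries (-0.20 ± 0.29). Bmp6 had 10.13 and 10.53 in the FLCNKO-labelled libraries and 10.19 and 9.95 in WT, with the 1 positive log2 fold change among the ligands (0.26 ± 0.20). For these 3 genes the limma adjusted p-values lay at 0.833, 0.731 and 0.5, in that order.

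Bmp3, a divergent BMP with antagonist activity, and Inhbb, the activin B subunit gene that fat is known to express, had the widest spread of the ligands. Bmp3 had 10.05 and 12.02 in the FLCNKO-labelled libraries and 10.85 and 11.35 in WT (-0.07 ± 0.65; limma adjusted p = 0.965). Inhbb had 10.47 and 11.73 in the FLCNKO-labelled libraries and 11.07 and 11.51 in WT (-0.19 ± 0.43; limma adjusted p = 0.832). In both genes the WT values lay between the FLCNKO-labelled ones. Without FLCNKO-labelled replicate 1 the differences were 0.92 for Bmp3, 0.44 for Inhbb, 0.14 for Bmp2 and 0.21 for Bmp4. Without WT replicate 2 they were 0.18 for Bmp3 and 0.03 for Inhbb. The median of the 9 ligands was -0.19, and it was 0.14 without FLCNKO-labelled replicate 1 and -0.54 without FLCNKO-labelled replicate 2.

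**Figure D2:**
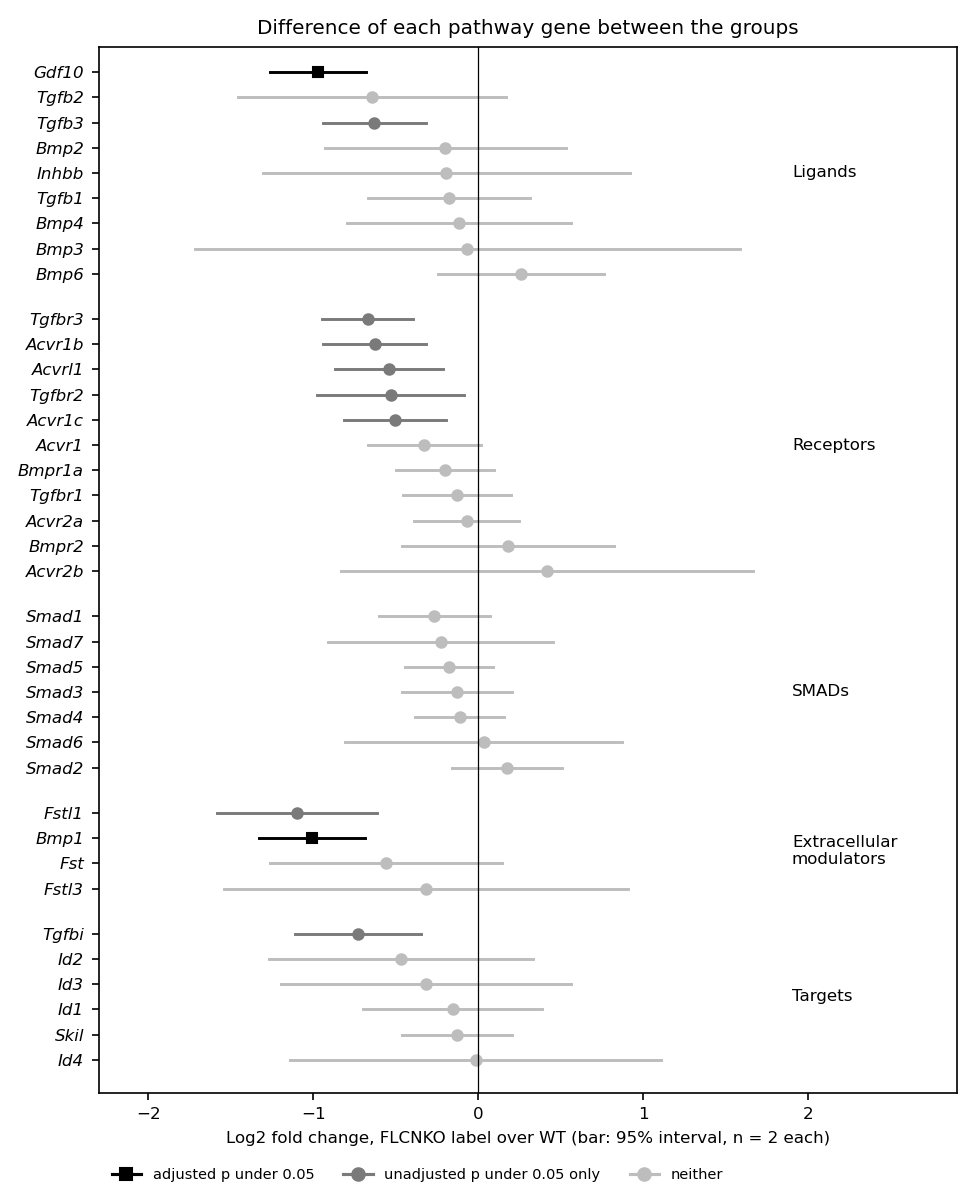
Log2 fold change of each pathway gene, FLCNKO label over WT (horizontal axis), with its 95% interval from limma and n = 2 libraries a group. The 2 black squares, Gdf10 at -0.97 and Bmp1 at -1.01, passed the adjusted threshold, and the other 8 genes in dark grey have intervals that lie below 0 without passing it.

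Of 11 receptor genes, 0 were called by limma after adjustment, and 5 were lower at an unadjusted p under 0.05 with groups that lay apart. Their median log2 fold change was -0.33. Tgfbr3, or betaglycan, the co-receptor that presents TGF-beta, came nearest to the threshold of the 35 pathway genes not called with all 4 libraries. Tgfbr3 had 13.67 and 13.54 in the FLCNKO-labelled libraries and 14.26 and 14.29 in WT, a log2 fold change of -0.67 ± 0.11 (SE; limma adjusted p = 0.0577). Tgfbr2, the type II receptor of TGF-beta, had 13.82 and 13.38 in the FLCNKO-labelled libraries and 14.18 and 14.09 in WT (-0.53 ± 0.17; limma adjusted p = 0.168). Its type I partner Tgfbr1 had 11.43 and 11.62 in the FLCNKO-labelled libraries and 11.60 and 11.71 in WT (-0.13 ± 0.13; limma adjusted p = 0.607). The groups thus lay apart for Tgfbr3 and Tgfbr2 and overlapped for Tgfbr1. A test between these receptors was not made.

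Among the activin-type receptors, Acvr1b and Acvr1c encode the type I receptors ALK4 and ALK7. Acvr1b had 10.26 and 10.21 in the FLCNKO-labelled libraries and 10.85 and 10.87 in WT (-0.63 ± 0.12; limma adjusted p = 0.0722). Acvr1c, which is abundant in adipocytes and is known there to restrain lipolysis, had 13.09 and 13.08 in the FLCNKO-labelled libraries and 13.47 and 13.70 in WT (-0.50 ± 0.12; limma adjusted p = 0.101). Both had groups that lay apart. Neither type II activin receptor did. Acvr2a had 11.29 and 11.36 in the FLCNKO-labelled libraries and 11.30 and 11.49 in WT (-0.07 ± 0.12, and 0.02 without WT replicate 2). Acvr2b had 6.86 and 7.71 in the FLCNKO-labelled libraries and 6.49 and 7.24 in WT (0.42 ± 0.49, and -0.0093 without FLCNKO-labelled replicate 2).

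Acvrl1, the endothelial type I receptor ALK1 for circulating BMPs, had 11.39 and 11.62 in the FLCNKO-labelled libraries and 12.09 and 12.01 in WT. Its groups lay apart, with a log2 fold change of -0.54 ± 0.13 (SE; limma adjusted p = 0.0991). The 8 endothelial markers had a median of -0.0046 and ranged from -0.41 for Tek to 0.49 for Cldn5. The part of endothelial cells in the Acvrl1 value was not tested. Of the BMP receptors, Bmpr1a had 12.87 and 13.02 in the FLCNKO-labelled libraries and 13.08 and 13.21 in WT (-0.20 ± 0.12; limma adjusted p = 0.369). Acvr1, the type I receptor ALK2, had 10.77 and 10.93 in the FLCNKO-labelled libraries and 11.26 and 11.09 in WT (-0.33 ± 0.13; limma adjusted p = 0.24). The groups of Bmpr1a and Acvr1 lay apart without passing. Bmpr2, the BMP type II receptor, had 10.33 and 10.98 in the FLCNKO-labelled libraries and 10.34 and 10.61 in WT, so its groups overlapped (0.18 ± 0.25, and -0.14 without FLCNKO-labelled replicate 2).

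The log2 fold changes of the 7 SMAD genes lay between -0.27 and 0.17, with a median of -0.13 (-0.081 without FLCNKO-labelled replicate 1), and limma called 0 of them (0 at an unadjusted p under 0.05). Smad1, of the BMP branch, had 10.71 and 10.87 in the FLCNKO-labelled libraries and 11.12 and 10.9998 in WT (-0.27 ± 0.13; limma adjusted p = 0.306). Smad5, of the same branch, had 12.82 and 12.75 in the FLCNKO-labelled libraries and 12.93 and 13.00 in WT (-0.18 ± 0.10; limma adjusted p = 0.382). The shared Smad4 had 11.97 and 12.03 in the FLCNKO-labelled libraries and 12.09 and 12.14 in WT (-0.11 ± 0.11; limma adjusted p = 0.586). These 3 genes had groups that lay apart by less than 0.3.

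Smad2 and Smad3, of the TGF-beta branch, had log2 fold changes of opposite sign, neither of which passed. Smad2 had 11.69 and 11.60 in the FLCNKO-labelled libraries and 11.36 and 11.58 in WT (0.17 ± 0.13; limma adjusted p = 0.5). Smad3 had 11.20 and 11.11 in the FLCNKO-labelled libraries and 11.38 and 11.18 in WT (-0.13 ± 0.13; limma adjusted p = 0.621). The inhibitory SMAD genes, which are themselves induced by the pathway, had groups that overlapped. Smad6 had 8.08 and 8.89 in the FLCNKO-labelled libraries and 8.37 and 8.54 in WT (0.03 ± 0.33, with -0.05 without WT replicate 1 and -0.37 without FLCNKO-labelled replicate 2). Smad7 had 8.32 and 8.86 in the FLCNKO-labelled libraries and 8.68 and 8.96 in WT (-0.23 ± 0.27, and 0.04 without FLCNKO-labelled replicate 1). The 95% intervals, from -0.81 to 0.87 for Smad6 and from -0.91 to 0.45 for Smad7, allow differences in either direction.

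Of the 4 measured extracellular modulators, Bmp1 fell, and the 4 had a median log2 fold change of -0.78. Bmp1 (ENSMUSG00000022098), despite its name, encodes a secreted metalloprotease that trims procollagens and cleaves the BMP antagonist chordin. Bmp1 had 12.72 and 12.54 in the FLCNKO-labelled libraries and 13.72 and 13.56 in WT, with means of 12.63 ± 0.13 and 13.64 ± 0.11 (SD, n = 2 each). The FLCNKO-labelled values lay below both WT values, with a log2 fold change of -1.01 ± 0.13 (SE; limma adjusted p = 0.0436), or 2.01-fold lower. With a library left out the limma call for Bmp1 was lost each time. Its value was -1.10 without FLCNKO-labelled replicate 1 (adjusted p = 0.103), -0.91 without FLCNKO-labelled replicate 2 (adjusted p = 0.0765), -0.93 without WT replicate 1 (adjusted p = 0.32) and -1.09 without WT replicate 2 (adjusted p = 0.246). The limma adjusted p for Bmp1 was 0.142 without the mean-variance trend. Its procollagen substrates Col1a1 and Col3a1, both among the fibroblast markers, had log2 fold changes of -1.25 ± 0.15 and -0.91 ± 0.16 (limma adjusted p = 0.0419 and 0.0647).

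Fstl1, a secreted glycoprotein of mesenchymal cells related to follistatin, had the largest difference of the 37 genes with all 4 libraries, but not in every fit with 1 left out. It was -0.95 without WT replicate 1, where Gdf10 had -1.02, and -0.89 without FLCNKO-labelled replicate 2, where Bmp3 had -1.05. Fstl1 (ENSMUSG00000022816) had 14.72 and 14.31 in the FLCNKO-labelled libraries and 15.77 and 15.47 in WT. The groups lay apart, with a log2 fold change of -1.10 ± 0.19 (SE), or 2.14-fold lower, that did not pass (limma adjusted p = 0.0625). The SDs of Fstl1 were 0.29 in the FLCNKO-labelled libraries and 0.21 in WT, wider than those of Bmp1. Fst, or follistatin, which binds activins, had 9.89 and 9.18 in the FLCNKO-labelled libraries and 10.22 and 9.97 in WT (-0.56 ± 0.27; limma adjusted p = 0.304). The Fst value was -0.91 without FLCNKO-labelled replicate 1 and -0.20 without FLCNKO-labelled replicate 2. Fstl3, a further activin-binding protein, had 7.15 and 8.47 in the FLCNKO-labelled libraries and 8.19 and 8.07 in WT, so the groups overlapped (-0.32 ± 0.48, and 0.34 without FLCNKO-labelled replicate 1). The Fstl3 value is uncertain, since 59.2% of its exon bases overlap exons of Prss57 on the opposite strand.

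Of 6 target genes limma called 0 after adjustment, and 1, Tgfbi, was lower at an unadjusted p under 0.05. Tgfbi, a matrix protein gene induced by TGF-beta, had 13.29 and 13.33 in the FLCNKO-labelled libraries and 14.21 and 13.86 in WT (-0.73 ± 0.15, SE; limma adjusted p = 0.0789). Skil, which encodes the SMAD corepressor SnoN and is induced by TGF-beta, had 10.80 and 10.63 in the FLCNKO-labelled libraries and 10.87 and 10.81 in WT (-0.13 ± 0.13; limma adjusted p = 0.613). The groups of both genes lay apart, by little for Skil. The Id genes, which encode inhibitors of helix-loop-helix factors and are induced by BMP signals, had groups that overlapped.

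Id1 had 10.62 and 10.55 in the FLCNKO-labelled libraries and 11.02 and 10.47 in WT (-0.15 ± 0.21, and 0.12 without WT replicate 1). Id2 had 11.01 and 10.09 in the FLCNKO-labelled libraries and 11.05 and 10.99 in WT (-0.47 ± 0.31, with -0.93 without FLCNKO-labelled replicate 1 and -0.0069 without FLCNKO-labelled replicate 2). Id3 had 11.42 and 12.46 in the FLCNKO-labelled libraries and 12.22 and 12.29 in WT (-0.32 ± 0.34, and 0.21 without FLCNKO-labelled replicate 1). The low value of Id2 was in FLCNKO-labelled replicate 2 and that of Id3 in replicate 1. Id4 had 7.20 and 6.59 in the FLCNKO-labelled libraries and 6.65 and 7.17 in WT (-0.02 ± 0.44, with 0.24 without WT replicate 2 and 0.29 without FLCNKO-labelled replicate 2). The limma adjusted p-values of Id1, Id2, Id3 and Id4 were 0.717, 0.442, 0.643 and 0.987.

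**Figure D3:**
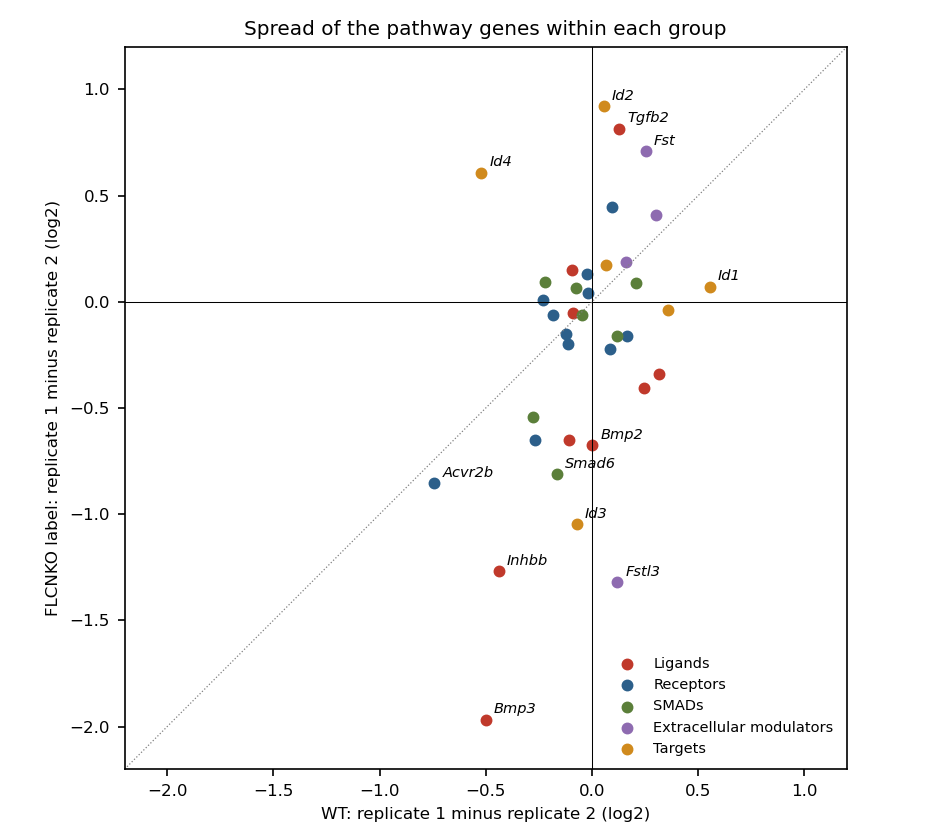
Difference between replicate 1 and replicate 2 of each pathway gene, within WT (horizontal axis, log2) and within the FLCNKO label (vertical axis, log2), coloured by role, with a dotted line of equal differences. The points spread further on the vertical axis, from -1.97 for Bmp3 to 0.92 for Id2.

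The pathway genes varied more between the FLCNKO-labelled libraries than between the WT libraries. The median absolute difference between replicates was 0.22 within the FLCNKO label and 0.16 within WT, beside 0.25 and 0.15 over all genes. It was larger within the FLCNKO label for 28 of the 37 genes, or 75.7%, and for 63.1% of all genes. The FLCNKO-labelled replicates lay more than 0.5 apart for 14 genes, or 37.8%, beside 22.3% of all genes, and the WT replicates did so for 4. That limit was chosen after the values were seen. Replicate 1 was the lower in 10 of the 14, namely Bmp2, Bmp3, Bmp4, Inhbb, Bmpr2, Acvr2b, Smad6, Smad7, Fstl3 and Id3, and the higher in Tgfb2, Fst, Id2 and Id4. Over all 37 genes, FLCNKO-labelled replicate 1 was the lower in 21 and the higher in 16, beside 6984 and 6646 of all genes. In 9 genes both WT values lay between the FLCNKO-labelled ones. The share over all genes was not computed for these 9 genes or for the 4 of WT. Among cell markers, 6 of 8 endothelial and 7 of 10 adipocyte markers were lower in FLCNKO-labelled replicate 1 than in replicate 2. So were 4 of 6 smooth muscle and pericyte markers. Higher there were all 10 macrophage, 8 of 12 fibroblast and progenitor, 8 of 9 skeletal muscle and 5 of 7 lymphocyte markers. The mammary epithelial and mesothelial markers were divided evenly. The median absolute difference of the skeletal muscle markers was 6.60 within the FLCNKO label and 3.04 within WT. The part of these cell markers in the spread was not tested.

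Further genes of the pathway were read from 6 lists of 105 genes, of which 74 had a value. In the FLCNKO-labelled libraries 2 of the 74 fell, Pcsk6 and Htra1, and 0 rose, beside the 0.614% of all genes called lower. At an unadjusted p under 0.05, 17 of the 74 were lower and 2 higher, beside 10.3% of all genes lower and 12.1% higher. The same shares over all genes apply to the unadjusted counts given below for each of the 6 lists. Pcsk6, a convertase that cuts the precursors of TGF-beta family ligands, had 13.06 and 13.20 in the FLCNKO-labelled libraries and 14.04 and 13.92 in WT (-0.85 ± 0.11, SE; limma adjusted p = 0.0476). Htra1, a secreted serine protease that binds and inhibits family ligands, had 12.92 and 12.96 in the FLCNKO-labelled libraries and 13.96 and 13.90 in WT (-0.99 ± 0.10; limma adjusted p = 0.0383). Both had groups that lay apart by more than 0.7. When a library was left out neither passed, with limma adjusted p-values of 0.103, 0.068, 0.343 and 0.265 for Pcsk6 and 0.103, 0.0615, 0.298 and 0.246 for Htra1, without FLCNKO-labelled replicates 1 and 2 and WT replicates 1 and 2 in that order.

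The 10 measured antagonists other than follistatin and its relatives had log2 fold changes with a median of -0.83, and 1 was called lower and 7 were lower at an unadjusted p under 0.05. Dcn, or decorin, a proteoglycan that binds TGF-beta, had 16.62 and 16.41 in the FLCNKO-labelled libraries and 17.55 and 17.48 in WT (-1.0003 ± 0.15; limma adjusted p = 0.0517). Bmper, a secreted BMP-binding protein, had 11.19 and 10.96 in the FLCNKO-labelled libraries and 11.95 and 11.90 in WT (-0.85 ± 0.13; limma adjusted p = 0.0547). Neither gene passed, and in both the groups lay apart. Noggin had no value. Decorin is also a product of fibroblasts, whose 12 markers had a median of -0.90. The part of fibroblasts in the Dcn value was not tested.

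A list on latency and activation, the holding of ligands in the matrix and their release, had 14 measured genes with a median log2 fold change of -0.18. Pcsk6 was the 1 called, and 5 were lower and 1 higher at an unadjusted p under 0.05. Fbn1, the fibrillin to which latent complexes bind, had 13.37 and 12.91 in the FLCNKO-labelled libraries and 14.38 and 14.25 in WT (-1.18 ± 0.18; limma adjusted p = 0.0543). Ltbp1, a latent TGF-beta binding protein gene, had 12.03 and 11.69 in the FLCNKO-labelled libraries and 12.88 and 12.73 in WT (-0.94 ± 0.15; limma adjusted p = 0.0591). Both lay lower without passing. Ltbp2, a relative of Ltbp1 named after its values were seen, lay apart in the other direction (0.59 ± 0.11, limma adjusted p = 0.0684). It had 11.67 and 11.64 in the FLCNKO-labelled libraries and 11.08 and 11.05 in WT. Whether the Ltbp2 value bears on latency was not tested.

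In the other lists limma called 0 genes after adjustment, and the genes of smallest p were these. Among 8 further ligands, 1 of which was lower at an unadjusted p under 0.05, Bmp7, which is known to drive brown fat differentiation, had 9.28 and 8.75 in the FLCNKO-labelled libraries and 10.23 and 9.89 in WT (-1.04 ± 0.25; limma adjusted p = 0.0991). Bmp8a and Gdf11 had log2 fold changes of -1.12 ± 0.45 and -0.37 ± 0.43 (limma adjusted p = 0.23 and 0.662), that of Gdf11 being 0.09 without FLCNKO-labelled replicate 2. Among 7 further receptors and co-receptors, 1 was lower at an unadjusted p under 0.05. It was the BMP co-receptor gene Rgma, with 11.18 and 11.03 in the FLCNKO-labelled libraries and 11.70 and 11.89 in WT (-0.69 ± 0.13; limma adjusted p = 0.0706). Neo1, which encodes a receptor for that protein, and the endothelial co-receptor gene Eng had -0.22 ± 0.15 and -0.16 ± 0.24 (limma adjusted p = 0.468 and 0.75), that of Eng being 0.18 without FLCNKO-labelled replicate 1.

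Among 18 intracellular regulators the median was 0.13, with 2 lower and 1 higher at an unadjusted p under 0.05. The higher one was Nedd4l, a ubiquitin ligase gene (0.51 ± 0.13; limma adjusted p = 0.11), and the lower ones were the corepressor gene Ski (-0.41 ± 0.12; limma adjusted p = 0.133) and Smurf2, a ubiquitin ligase that marks SMADs and receptors (-0.38 ± 0.11; limma adjusted p = 0.144). Among 17 further targets the median was -0.24, and 1 was lower at an unadjusted p under 0.05. It was Junb, with 7.46 and 8.15 in the FLCNKO-labelled libraries and 8.73 and 8.54 in WT (-0.83 ± 0.31; limma adjusted p = 0.212). Msx1 and Angptl4 had -0.62 ± 0.25 and 0.68 ± 0.30 (limma adjusted p = 0.236 and 0.265). Of the 17, 11 had log2 fold changes below 0 and 6 above. The value of Junb was -0.48 without FLCNKO-labelled replicate 1, and leaving out WT replicate 2 gave 0.28 for Angptl4 while leaving out WT replicate 1 gave 1.08.

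**Figure D4:**
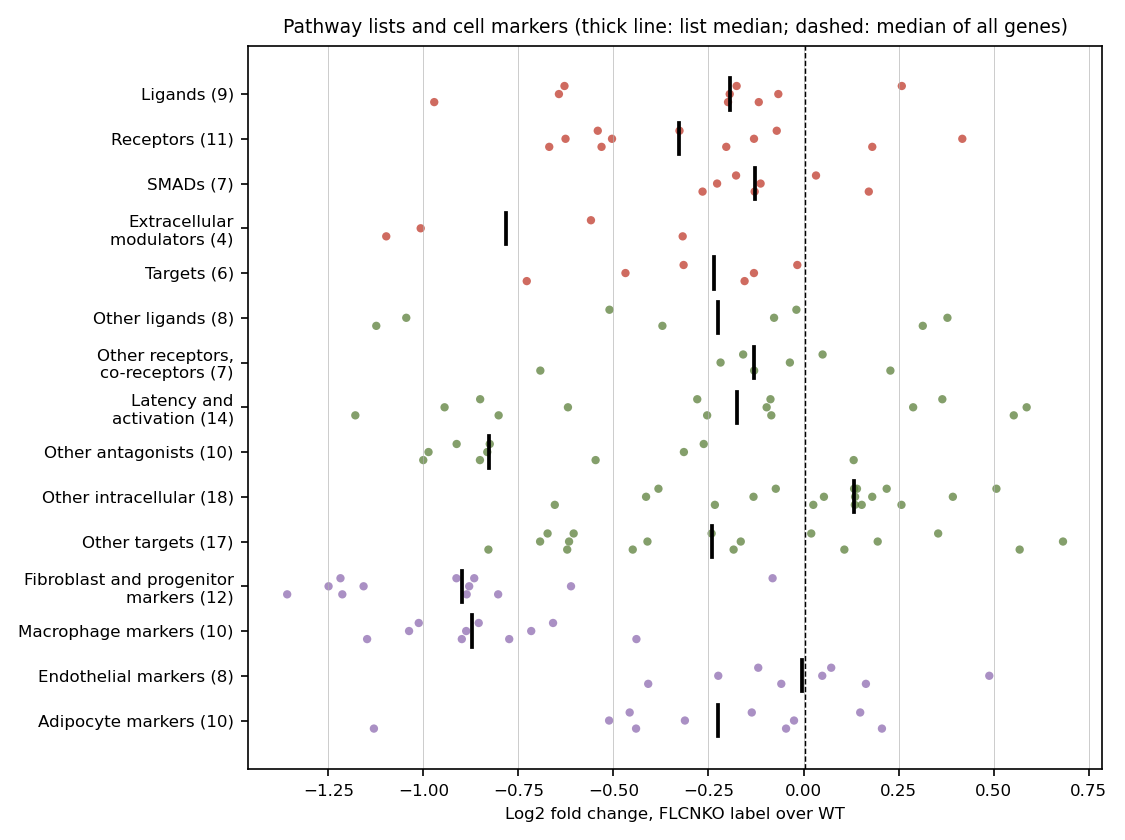
Log2 fold change of every measured gene, FLCNKO label over WT (horizontal axis), in each list, with the number of measured genes in brackets, a thick line at the list median and a dashed line at the median of all genes. The lists of extracellular modulators and other antagonists had medians of -0.78 and -0.83, while SMADs and other intracellular regulators lay at -0.13 and 0.13. The fibroblast, macrophage, adipocyte and endothelial markers lay at -0.90, -0.87, -0.22 and -0.0046. Marker lists not drawn had medians of -0.76 (lymphocyte), -1.11 (mammary epithelial), -3.05 (skeletal muscle), -0.21 (mesothelial) and 0.34 (smooth muscle and pericyte). The part of any cell type in the pathway lists was not tested.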

How the data were processed

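RNA of mouse inguinal fat was sequenced in 4 libraries, 2 labelled FLCNKO and 2 labelled WT by their titles. For every library the authors deposited log2 values of 13677 genes under Ensembl identifiers. Per the submitters' processing notes, STAR, limma and build mm9 were used, with no version. How reads were counted, with which annotation and strand setting, is not given in the sources used here. Across libraries these values share nearly 1 distribution, so a shift common to most genes cannot be seen. Symbols were matched by identifier for 13592 genes.

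One limma fit (version 3.58.1, R 4.3.3) covered all genes, with group as the only term, a variance trend on mean expression (2 residual and 3.09 prior degrees of freedom), two-sided tests and Benjamini-Hochberg adjustment at a threshold of 0.05. No filter was used. The fit was also run on data simulated under its own variance model with independent libraries, which checks the code and not the calls made here. Exon overlap was read from GENCODE on GRCm38, and figures were drawn with matplotlib 3.10.9. The pathway genes, lists, tests and alternatives were chosen with earlier results of these data known. Every measured pathway gene is named. Of each other list, called genes and the 3 of smallest p are named. Alternatives were other variance moderation, normalization and filters, a replicate block and leaving out each library.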

Additional observations from a re-analysis of the deposited data

How the results depend on the processing

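Repeated quantile normalization and median centring left 2 pathway genes called lower. All counts of calls were 0 with limma when any 1 library was left out, while 7 to 15 pathway genes were lower and 0 to 1 higher (Bmp3, without FLCNKO-labelled replicate 1) at an unadjusted p under 0.05. Without the mean-variance trend limma called 0 pathway genes (9 lower at an unadjusted p under 0.05), 0 of the other pathway genes and 0 genes in all. Robust moderation gave 6 other pathway genes lower and, of all genes, 143 lower and 201 higher. Keeping genes whose mean reached 8 gave 6, 138 and 187.

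With the replicate number as a block, 4 pathway genes were lower, Fstl1 (limma adjusted p = 0.0269) and Tgfbr3 (adjusted p = 0.0471) being added, with 10 other pathway genes lower, among them Fbn1, Ltbp1, Dcn, Bmper and Bmp7 (adjusted p = 0.0266, 0.0306, 0.0398, 0.0347 and 0.0381), and 441 lower and 401 higher of all genes. The deviations of same-numbered libraries correlated at 0.36 across genes, and no label says that a number marks a shared animal or day.

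Over the 4 fits that each leave out 1 library, 24 of the 37 pathway genes kept the sign of their difference. Log2 fold changes of the others ranged from -0.16 to 0.021 for Acvr2a, -0.0093 to 0.84 for Acvr2b, -0.54 to 0.14 for Bmp2, -1.05 to 0.92 for Bmp3, -0.44 to 0.21 for Bmp4, -0.14 to 0.51 for Bmpr2, -0.98 to 0.34 for Fstl3, -0.43 to 0.12 for Id1, -0.84 to 0.21 for Id3, -0.32 to 0.29 for Id4, -0.83 to 0.44 for Inhbb, -0.37 to 0.44 for Smad6 and -0.50 to 0.043 for Smad7. Beyond them, they ranged from -0.50 to 0.18 for Eng, -0.83 to 0.092 for Gdf11 and -0.17 to 0.063 for Flcn. Without a change of sign, the range was also wide for Id2 (-0.93 to -0.0069), Tgfb1 (-0.35 to -0.0063), Tgfb2 (-1.05 to -0.24), Fst (-0.91 to -0.20), Tgfbr2 (-0.75 to -0.31), Bmp6 (0.056 to 0.46), Tgfbr1 (-0.23 to -0.032), Smad2 (0.062 to 0.28), Smad3 (-0.23 to -0.024) and Skil (-0.22 to -0.044). The median ranged from -0.14 to -0.081 for SMADs and -0.36 to -0.082 for targets. It ranged from -0.35 to -0.18 for the 37 genes and from -0.54 to 0.14 for the ligands. The cause of these changes was not tested. A library alone in its group is assumed to vary like the others. Depth is unknown, so the limit it sets cannot be given.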
